A study of Homo sapiens with 18 samples.

Results

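The plasma cell programme loci are the peaks of 10 genes of antibody-secreting cell differentiation: PRDM1, IRF4, XBP1, CREB3L2, ELL2, SDC1, TNFRSF17, CD38, SLAMF7 and MZB1. A peak, a 501 bp window of open chromatin, was taken when its centre lay inside the RefSeq span of a member, or when a member was the nearest protein-coding gene within 50 kb. This gave 50 of the 71318 peaks, and each of the 10 genes had at least 1. The peaks were measured by Omni-ATAC-seq, which reads where a transposase can reach DNA, in Raji, a Burkitt lymphoma B-cell line. Cells with low GFP and cells with high GFP were taken at 24, 48 and 72 h, with 3 samples for each GFP level and time. All groups carry the genotype label Smarca4+/+, and the series is about degrading SMARCA4 (BRG1), a motor subunit of the BAF chromatin remodeller, with an auxin-inducible degron. No label gives an auxin dose or ties a GFP level to the amount of SMARCA4, so the groups go by GFP level alone. One cell line was used, and nothing says that samples came from separate cultures.

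Plasma cells arise when activated B cells give up their B-cell identity and turn to antibody secretion. IRF4 raises PRDM1, whose product BLIMP1 shuts off B-cell regulators such as PAX5 and BCL6. XBP1 then enlarges the secretory pathway. Germinal centre B cells, which Burkitt lymphoma lines resemble, normally hold this programme back.

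The 18 columns of the table held 7106939 to 11171849 counts. Within a GFP level and time, the columns differed from each other by a near-constant multiple of counting noise (1.78 to 1.81), so each set of 3 was summed and counted as 1 library. The 6 resulting libraries held 22908652 to 29790483 counts, and each GFP level has 3 of them, 1 per time. A peak within 1 kb of their own gene's end was assigned to 5 of 6 B-cell marker genes, at 14.5 to 79.0 CPM (counts scaled to a common library size). It was assigned to 3 of 5 T-cell markers at 2.65 to 38.1 CPM (CD3E the highest), 1 of 4 myeloid markers at 5.64 CPM and 0 of 3 epithelial markers.

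RefSeq promoter sequences were matched for 7 of the 10 genes, and those of 5 genes overlapped a peak. These 5 are shown because the 3 strongest member peaks lie on such promoters and because the 5 behaved differently: the CD38 peak was lower in GFP low, that of CREB3L2 was higher, and those of PRDM1, MZB1 and XBP1 did not pass the test. Each line gives the 250 bases before the start (GRCh38.p14), 5′ to 3′ on the gene's strand. Capitals mark any match, on either strand, to the GC box GGGCGG, the CCAAT box, the TATA box TATAAA, the interferon regulatory factor element in the form GAAANNGAA, or the core ACGTG of several bZIP and bHLH sites.
CD38 (chr4:15778078-15778327, plus strand): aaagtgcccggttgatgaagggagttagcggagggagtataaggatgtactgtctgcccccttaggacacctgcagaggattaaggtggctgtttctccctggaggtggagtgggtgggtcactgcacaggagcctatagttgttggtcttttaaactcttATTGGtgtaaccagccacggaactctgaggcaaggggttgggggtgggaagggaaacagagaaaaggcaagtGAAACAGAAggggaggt
CREB3L2 (chr7:138002087-138002336, minus strand): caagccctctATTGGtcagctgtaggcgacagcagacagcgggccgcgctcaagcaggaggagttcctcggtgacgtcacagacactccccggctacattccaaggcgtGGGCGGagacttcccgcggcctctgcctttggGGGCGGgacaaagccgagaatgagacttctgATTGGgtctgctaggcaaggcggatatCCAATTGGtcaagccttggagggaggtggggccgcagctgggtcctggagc
PRDM1 (chr6:106086086-106086335, plus strand): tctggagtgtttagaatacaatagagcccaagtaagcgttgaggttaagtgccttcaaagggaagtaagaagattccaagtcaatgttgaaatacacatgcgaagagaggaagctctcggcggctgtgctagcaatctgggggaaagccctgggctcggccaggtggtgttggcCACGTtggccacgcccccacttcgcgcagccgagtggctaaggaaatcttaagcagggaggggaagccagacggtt
MZB1 (chr5:139389914-139390163, minus strand): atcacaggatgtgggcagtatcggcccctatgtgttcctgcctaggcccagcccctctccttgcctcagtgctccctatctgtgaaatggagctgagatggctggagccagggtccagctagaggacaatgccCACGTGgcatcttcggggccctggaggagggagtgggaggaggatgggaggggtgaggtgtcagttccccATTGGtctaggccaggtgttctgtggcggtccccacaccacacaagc
XBP1 (chr22:28800570-28800819, minus strand): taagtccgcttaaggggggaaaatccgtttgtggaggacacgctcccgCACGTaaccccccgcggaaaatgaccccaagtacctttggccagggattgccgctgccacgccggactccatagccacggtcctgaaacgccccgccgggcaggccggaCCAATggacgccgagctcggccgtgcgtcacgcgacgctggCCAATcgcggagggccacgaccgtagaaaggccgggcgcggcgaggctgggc

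The CD38 window held 1 CCAAT match and 1 GAAANNGAA match, and GAAANNGAA was present in 6.87% of 34943 promoter windows of that length. The CREB3L2 window held 2 GC boxes and 4 CCAAT matches, with 42.5% and 32% of all windows holding each. XBP1 held 2 CCAAT matches and 1 ACGTG match, PRDM1 1 ACGTG match, and MZB1 1 CCAAT match. In MZB1 the palindrome CACGTG was counted once per strand as ACGTG, a motif found in 18.5% of windows. TATAAA was in 0 of the 5 windows, against 10.8% of all. The XBP1 window had the highest GC content of the 5, at 67.6%, and CD38 the lowest, at 52.4% (median of all windows 58%).

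The first comparison set GFP low cells against GFP high cells at these loci, over the 3 times. Of the 50 peaks, 22 were lower in GFP low by edgeR's quasi-likelihood test (threshold 0.05 after Benjamini-Hochberg adjustment over all peaks), where 25.4% of all peaks were. That is 44% of the member peaks. Only 2 were higher (4%), where 13.4% of all peaks were. That gap rests on the 72 h libraries and on the test: without those libraries 4% of member peaks and 3.51% of all peaks were higher, and with DESeq2 4% and 5.22%. Lower were then 30% of member peaks, against 18.8% of all, without the 72 h libraries, and 36%, against 18%, with DESeq2. The lower peaks belonged to 7 genes. They were 6 of 10 peaks of PRDM1, 6 of 9 of CD38 and 5 of 9 of IRF4. ELL2 had 2 of 4, MZB1 1 of 3, SLAMF7 1 of 5 and TNFRSF17 1 of 1. The higher ones were the CREB3L2 promoter and a peak inside ELL2, and XBP1 and SDC1 had no called peak. The median log2 change was -0.23, against 0.03 over all peaks. A negative value was found in 34 of 50 member peaks, against 33679 of all 71318 peaks. All 24 called peaks had the same sign at each of the 3 times, which the call favours because it rests on the same differences. Called or not, 35 of 50 member peaks and 45753 of all 71318 peaks kept 1 sign. Neighbouring peaks of a locus share their surroundings, so these counts are not those of independent regions. In bulk samples, fewer open cells and less accessibility per cell cannot be told apart. P-values rest on 1 library per GFP level and time. They set the GFP difference against its spread over times, which may be technical. That spread is estimated mostly from other peaks (median of 22.6 prior against 2 residual degrees of freedom).

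Peaks of T-cell marker genes moved in the same direction. Of their 18 peaks 11 were lower (61.1%) and 0 higher, where 25.4% and 13.4% of all peaks were. Their summed level was 143 to 149 CPM in GFP low and 182 to 192 CPM in GFP high, without overlap. No peak lay at a gene end of CD5 or LCK. Of 31 B-cell marker peaks 4 were lower (12.9%) and 1 higher (3.23%). Their sums were 470.2 to 505 CPM in GFP low and 467 to 483 CPM in GFP high. Myeloid markers had 2 of 6 peaks lower and 0 higher (29.5 to 38.3 CPM in GFP low and 37.9 to 44.0 CPM in GFP high), with no gene-end peak for CD14, CSF1R or LYZ. Of 7 epithelial marker peaks 1 was lower and 1 higher. Their sums overlapped, at 45.5 to 48.3 CPM in GFP low and 42.4 to 51.9 CPM in GFP high. The part of these marker lists in the member result was not tested.

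**Figure D1:**
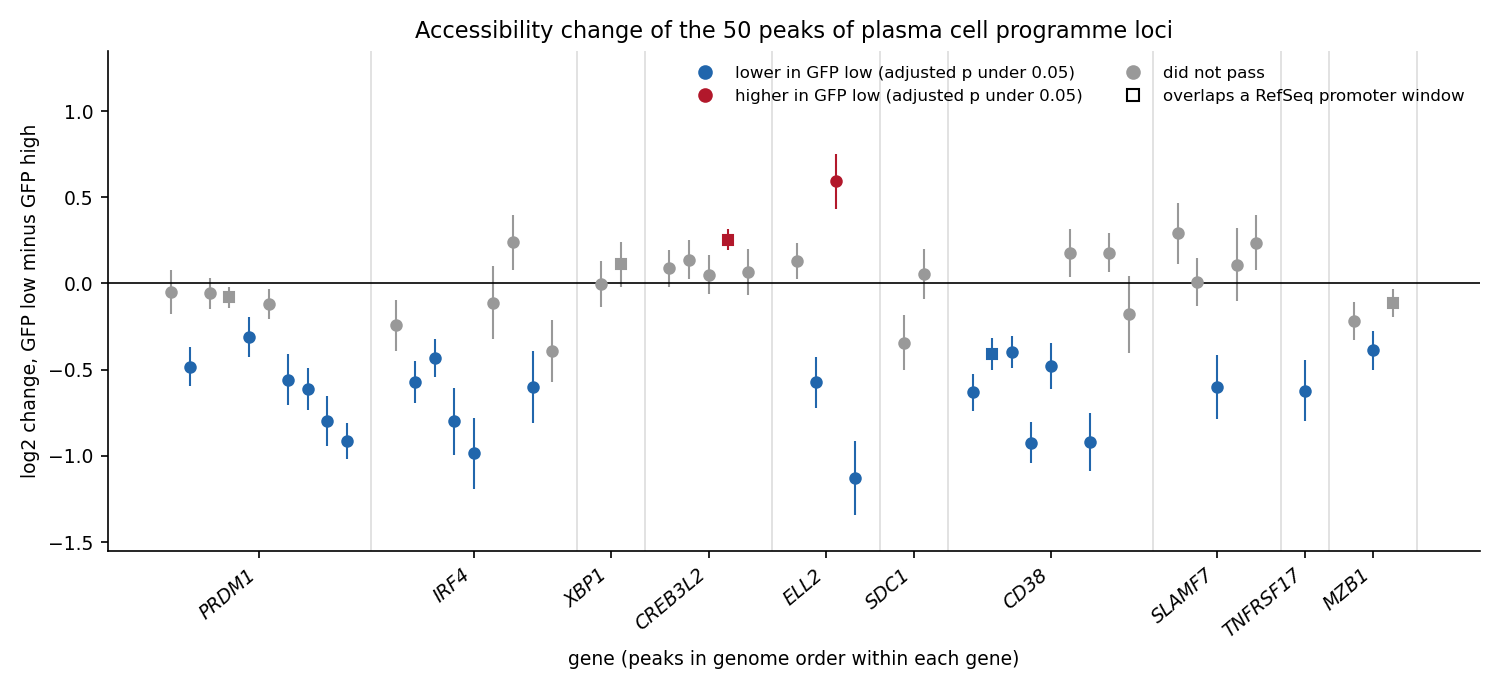
Log2 change in accessibility, GFP low minus GFP high over the 3 times, for each of the 50 member peaks (points, edgeR estimates; bars, SE), grouped by gene; squares overlap a RefSeq promoter window. The 22 lower peaks lie between -1.13 and -0.31, and the 2 higher ones, in CREB3L2 and ELL2, at 0.25 and 0.59.

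Where a peak lies bears on its direction in these data, so members were set beside peaks of the same position. Of 9 member peaks within 1 kb of a gene end, 4 were lower (44.4%), 3 of them at CD38 and 1 at MZB1, while 4.24% of all 13713 gene-end peaks were. Only 1 was higher (11.1%), against 34.4% of all gene-end peaks. The 3 CD38 peaks lie within 1 kb of 1 start, and the MZB1 call was lost without the 48 or the 72 h libraries. The PRDM1 promoter peak, which did not pass, lies inside the annotated span and counts with the gene bodies. In gene bodies 11 of 21 member peaks were lower (52.4%), against 30.3% of all. Between genes it was 7 of 20 (35%), against 30.6% of all, so there the member share lay near the background. Member peaks were about as strong as the rest, with a median of 8.02 CPM against 7.59 CPM over all peaks.

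**Figure D2:**
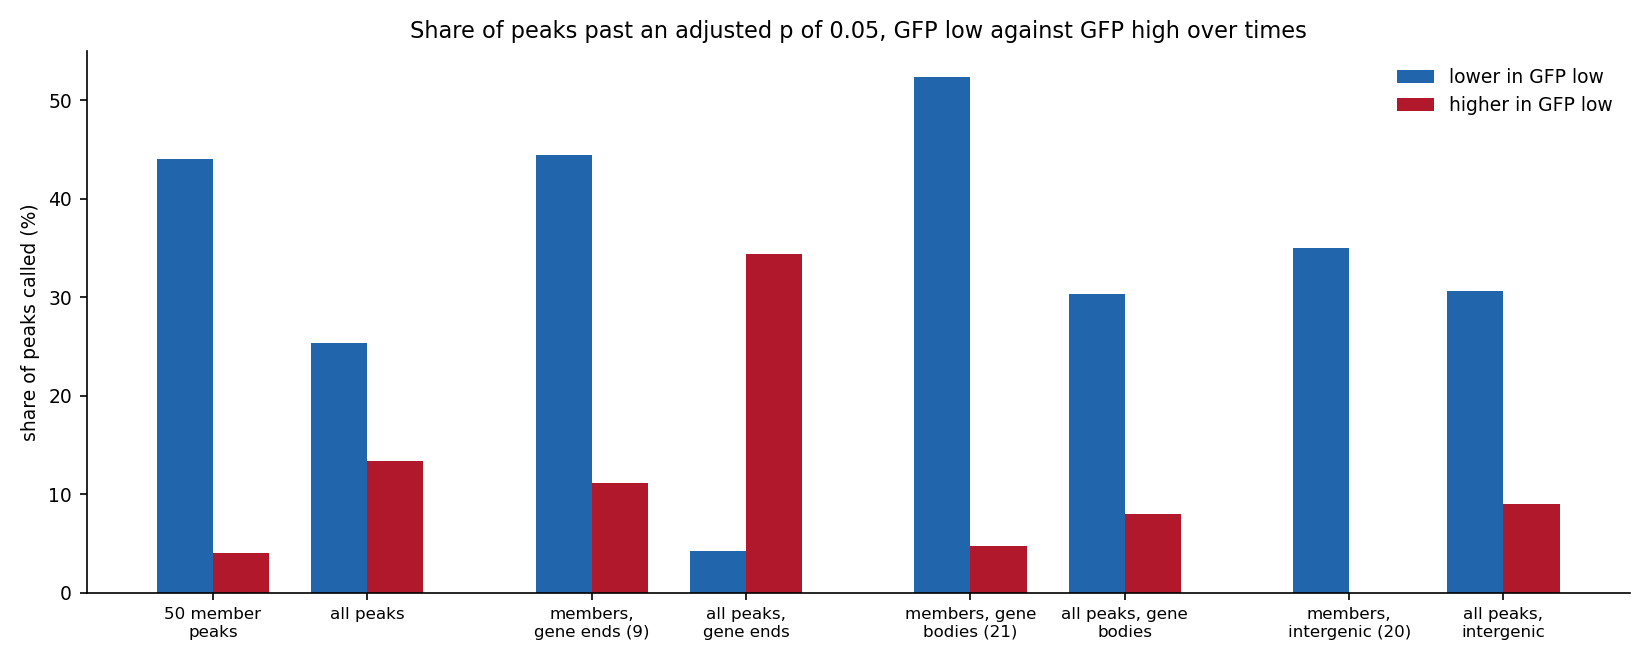
Share of peaks (%) called lower (blue) or higher (red) in GFP low over the 3 times, for the member peaks left of all peaks, in total and by position. At gene ends 44.4% of 9 member peaks were lower (3 around the CD38 start and 1 at MZB1), against 4.24% of all gene-end peaks. The PRDM1 promoter peak counts with the gene bodies.

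PRDM1, on chromosome 6, encodes BLIMP1, the repressor that commits B cells to the plasma cell fate. Its peaks fell most at the far downstream side. The peak 32.0 kb past the gene (chr6:106141714-106142214) held 18.4, 18.3 and 15.3 CPM in GFP low at 24, 48 and 72 h, and 39.5, 32.9 and 26.4 CPM in GFP high. The levels did not overlap, and the mean was 17.3 ± 1.77 CPM in GFP low against 33.0 ± 6.54 CPM in GFP high (SD over times, n = 3). On the log2 scale GFP low differed by -0.91 ± 0.10 (± SE here and below, with edgeR's adjusted p, here 6.93e-07). In GFP high this peak was lower at each later time, so the gap was -1.10 at 24 h and -0.79 at 72 h (95% counting intervals -1.31 to -0.89 and -1.02 to -0.56).

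Other PRDM1 peaks on that side were also lower. The changes were -0.80 ± 0.15 at 19.7 kb past the gene, -0.61 ± 0.12 at 7.7 kb past it and -0.56 ± 0.15 inside it, 17.5 kb from the start (adjusted p = 0.000158, 0.000431 and 0.00439). Changes of -0.48 ± 0.11 and -0.31 ± 0.12 were found 12.4 kb upstream and 11 kb downstream of the start (adjusted p = 0.00194 and 0.0388). The promoter itself did not follow them. That peak (chr6:106086013-106086513), the strongest of the 50, lies inside the annotated span because RefSeq extends PRDM1 further upstream, and is described though the naming rule does not pick it. It held 63.3, 72.6 and 75.3 CPM in GFP low and 71.2, 75.3 and 76.2 CPM in GFP high, a change of -0.08 ± 0.06 (adjusted p = 0.306). The 3 other PRDM1 peaks that did not pass had changes of -0.12 to -0.05.

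**Figure D3:**
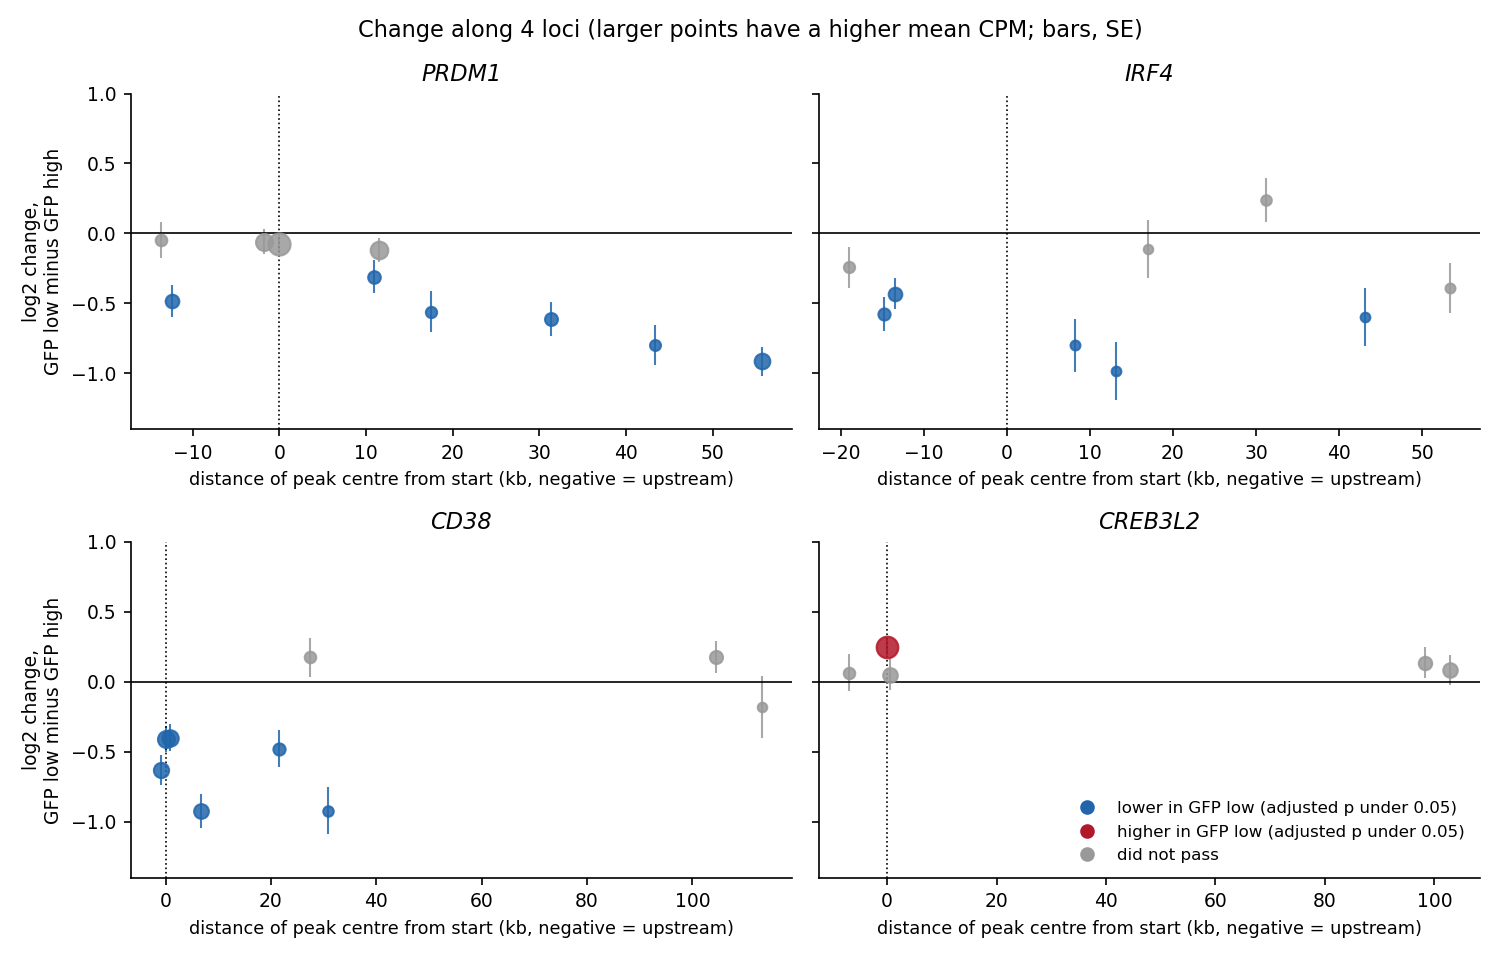
Log2 change, GFP low minus GFP high (points, edgeR estimates; bars, SE), against the distance of each peak's centre from the gene's start in kb, for PRDM1, IRF4, CD38 and CREB3L2; larger points have a higher mean CPM. At PRDM1 the promoter stands at -0.08 and the most distant downstream peak, 55.6 kb from the start, at -0.91.

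IRF4, also on chromosome 6, encodes the factor that turns on PRDM1. No peak overlapped its promoter window. The peak with the smallest p lies inside the gene, 13.2 kb from the start (chr6:404703-405203), and was weak. It held 2.49, 2.42 and 2.04 CPM in GFP low against 3.48, 5.19 and 5.14 CPM in GFP high, without overlap. The log2 change was -0.98 ± 0.21 (adjusted p = 0.000645). Another weak peak inside the gene changed by -0.80 ± 0.19 (adjusted p = 0.00218) and one 23.4 kb past it by -0.60 ± 0.21 (adjusted p = 0.0247). The stronger IRF4 peaks were upstream, 14.8 and 13.5 kb before the start, at -0.57 ± 0.12 and -0.43 ± 0.11 (adjusted p = 0.000697 and 0.00375). The GFP gap of the first hardly moved over the times: it was -0.51, -0.59 and -0.60 at 24, 48 and 72 h. The remaining 4 peaks did not pass, at -0.39 to 0.24.

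XBP1, on chromosome 22, encodes the unfolded protein response factor that builds secretory capacity. Its promoter peak (chr22:28800327-28800827) held 19.2, 13.2 and 14.8 CPM in GFP low and 13.8, 16.2 and 13.2 CPM in GFP high. The levels overlapped and the order changed with time, and the change over times was 0.11 ± 0.13 (adjusted p = 0.505). The other XBP1 peak, 2.2 kb past the gene, stood at 0.00 ± 0.14 (adjusted p = 0.991).

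CREB3L2, on chromosome 7, encodes a membrane-bound transcription factor related to ATF6 that is processed during secretory stress. Its promoter peak (chr7:138001898-138002398) was higher in GFP low at each time, at 71.8, 75.7 and 73.7 CPM against 58.9, 62.3 and 64.6 CPM in GFP high. The log2 change was 0.25 ± 0.06 (adjusted p = 0.00245), with means of 73.7 ± 1.97 CPM in GFP low and 61.9 ± 2.86 CPM in GFP high (SD over times, n = 3). With loess scaling, which removes a trend of the change with peak strength, it came to 0.06 and lost its call (adjusted p = 0.403). The second peak at that gene end stood at 0.05 ± 0.11 (adjusted p = 0.731), and the 3 other CREB3L2 peaks, which did not pass, at 0.07 to 0.14.

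ELL2, on chromosome 5, encodes an elongation factor that favours the secreted form of immunoglobulin heavy chain mRNA in plasma cells. Its peaks went both ways. A weak peak inside the gene, 37.5 kb from its nearer end (chr5:95924078-95924578), held 1.76, 1.88 and 1.63 CPM in GFP low against 4.21, 4.30 and 3.09 CPM in GFP high. Its log2 change, -1.13 ± 0.22, was the most negative among the 50 (adjusted p = 0.000275). Another peak inside the gene, 7.8 kb from an end (chr5:95892687-95893187), had 5.49, 5.97 and 5.81 CPM in GFP low against 3.40, 3.97 and 4.10 CPM in GFP high. That rise of 0.59 ± 0.16 (adjusted p = 0.00575) was the highest value among the 50. A peak 15.5 kb outside the gene fell by 0.57 on the log2 scale (SE 0.15, adjusted p = 0.00357), and one 26.2 kb outside did not pass (0.13 ± 0.10, adjusted p = 0.323).

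CD38, on chromosome 4, encodes an NAD-consuming surface enzyme that is high on plasma cells and also on germinal centre B cells. All 3 of its peaks around the start were lower in GFP low. The promoter peak (chr4:15778065-15778565) held 22.6, 29.2 and 34.0 CPM in GFP low against 35.3, 36.8 and 40.8 CPM in GFP high, a change of -0.41 ± 0.09 (adjusted p = 0.00146). The peak 0.8 kb downstream changed by -0.40 ± 0.09 (adjusted p = 0.00192) and that 0.9 kb upstream by -0.63 ± 0.11 (adjusted p = 7.56e-05). In all 3 the libraries of the 2 GFP levels were apart, as in each of the 22 lower member peaks, which the call favours.

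The peak with the smallest p at CD38 lies inside the gene, 6.7 kb from the start (chr4:15784825-15785325). It held 11.1, 14.8 and 16.9 CPM in GFP low against 27.3, 26.1 and 26.9 CPM in GFP high. GFP high stayed level while GFP low was higher at each later time. The change over times was -0.92 ± 0.12 (adjusted p = 3.11e-06), and at single times it was -1.29, -0.82 and -0.67 (95% counting intervals -1.56 to -1.03, -1.05 to -0.59 and -0.90 to -0.45). Peaks 21.6 and 30.8 kb from the start changed by -0.48 ± 0.13 and -0.92 ± 0.17 (adjusted p = 0.00641 and 0.000158). The 3 that did not pass, 1 inside the gene and 2 past it, stood at -0.18 to 0.18.

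SLAMF7, on chromosome 1, encodes a surface receptor of the SLAM family carried by plasma cells. Its gene-end peak (chr1:160738946-160739446) held 10.4, 7.15 and 5.60 CPM in GFP low and 8.30, 7.25 and 6.95 CPM in GFP high, with overlap (0.01 ± 0.14, adjusted p = 0.966). A weak peak inside the gene (chr1:160751401-160751901) held 3.58, 3.24 and 2.17 CPM in GFP low against 5.76, 4.27 and 3.62 CPM in GFP high. It changed by -0.60 ± 0.19 (adjusted p = 0.013). That call did not hold with DESeq2 (adjusted p = 0.0798), with loess scaling (0.0565) or without the 24 or the 72 h libraries (0.0574 and 0.0897). The 3 SLAMF7 peaks outside the gene did not pass, at 0.11 to 0.29.

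TNFRSF17, on chromosome 16, encodes BCMA, the receptor through which plasma cells receive survival signals. Its single peak (chr16:11966104-11966604) lies inside the gene and also inside the span of NPIPB2. It was weak, with 2.85, 3.70 and 2.78 CPM in GFP low against 4.39, 5.32 and 4.62 CPM in GFP high. The change was -0.62 ± 0.18 (adjusted p = 0.00821), lost with DESeq2 (adjusted p = 0.0602) and without the 72 h libraries (0.0796).

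MZB1, on chromosome 5, encodes an endoplasmic reticulum protein that aids antibody assembly. Its promoter peak (chr5:139389620-139390120) held 43.3, 37.9 and 44.0 CPM in GFP low and 45.6, 45.9 and 43.6 CPM in GFP high. These overlapped, and the change was -0.11 ± 0.08 (adjusted p = 0.269), but -0.26 and called with loess scaling (adjusted p = 0.0109). The next peak, 0.6 kb downstream (chr5:139389043-139389543), held 13.3, 11.9 and 14.3 CPM in GFP low against 16.6, 17.5 and 17.5 CPM in GFP high. It was lower by -0.39 ± 0.11 (adjusted p = 0.00963), a call lost without the 48 or the 72 h libraries (adjusted p = 0.102 and 0.0563). The peak 1.3 kb downstream did not pass (-0.22 ± 0.11, adjusted p = 0.116).

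SDC1, on chromosome 2, encodes CD138, the classical surface marker of plasma cells. No peak overlapped its promoter windows or lay inside it, and its 2 peaks were 14.2 and 34.4 kb outside. The stronger (chr2:20186382-20186882) held 8.59, 7.72 and 4.96 CPM in GFP low and 7.27, 6.71 and 6.15 CPM in GFP high, with overlap (0.06 ± 0.14, adjusted p = 0.77). The other stood at -0.34 ± 0.16 (adjusted p = 0.0874), a value that did not pass.

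Among the promoter peaks, all of 1 width, PRDM1 and CREB3L2 had the highest mean levels over the 6 libraries, at 72.3 and 67.8 CPM. MZB1 followed at 43.4 CPM, CD38 at 33.1 CPM and XBP1 at 15.1 CPM, and the SLAMF7 gene-end peak was at 7.61 CPM. PRDM1 and CREB3L2 overlapped in their ranges over libraries, while MZB1 lay above CD38 in each of the 6 libraries though their ranges overlapped.

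**Figure D4:**
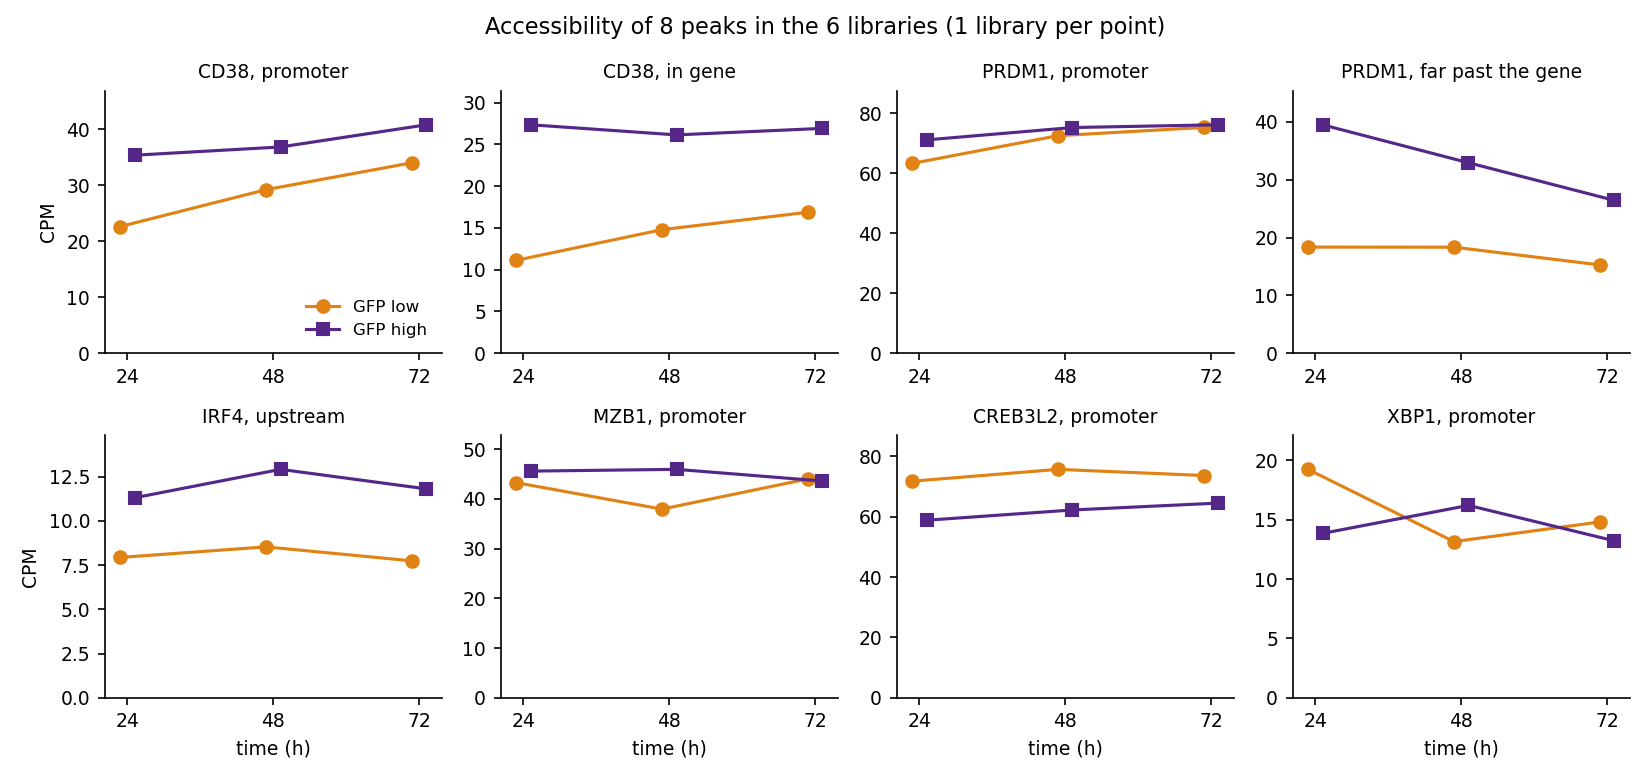
Accessibility (CPM, y axes starting at 0) at 24, 48 and 72 h of 8 member peaks in GFP low (circles) and GFP high (squares), 1 library per point. The CD38 peak 6.7 kb inside the gene stands at 11.1 to 16.9 CPM in GFP low and 26.1 to 27.3 CPM in GFP high, whereas the PRDM1 promoter overlaps between the levels.

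The next question was how the difference stood at each time. At least 2-fold lower in GFP low were 3 of 50 member peaks at 24 h (6%), where 8.16% of all peaks were. At 48 h it was 4 (8%), where 3.85% of all were, and at 72 h 1 (2%), where 3.83% were. With 1 library per GFP level and time there is no test, and the shares rest on 1 to 4 peaks. The times are themselves a reading of the column names: with the V numbers read as time the counts were 1, 3 and 2, and leaving out 1 column gave up to 5 at 24 h and up to 2 at 72 h. The 24 h peaks were those of ELL2 (-1.23), CD38 (-1.29) and PRDM1 (-1.10) named above. At 48 h they were the ELL2 peak (-1.16), the CD38 peak 30.8 kb from the start (-1.31) and 2 inside IRF4 (-1.05 and -1.08), and at 72 h it was the IRF4 peak 13.2 kb from the start (-1.30). At least 2-fold higher were 0 member peaks at each time, but the share of all peaks that were was not counted.

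Summed over their peaks, the loci differed in how the gap between GFP levels stood over time. The 9 CD38 peaks held 109.8, 128 and 135 CPM in GFP low and 165, 168 and 170.2 CPM in GFP high. The log2 gap was -0.59 at 24 h and -0.33 at 72 h (95% counting intervals -0.68 to -0.49 and -0.42 to -0.25). In GFP low the CD38 sum was 0.30 higher at 72 h than at 24 h on the log2 scale (0.21 to 0.39), and in GFP high 0.05 higher (-0.04 to 0.13). The IRF4 gap was steady, at -0.43, -0.39 and -0.43. PRDM1 had gaps of -0.36, -0.27 and -0.20, and over all 50 peaks the gap was -0.23, -0.19 and -0.17. These intervals cover counting error only.

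Changes with time over both GFP levels were tested in the same fit. Called were 0 of 50 member peaks for 72 h against 24 h in edgeR, where 1.87% of all peaks were called lower and 0.882% higher. At an unadjusted p under 0.05 there were 12 (7 lower, 5 higher), or 24% of the members, where 16% of all peaks were. The smallest adjusted p was 0.0557, and DESeq2 called 0. For 48 h against 24 h edgeR called 0 of all 71318 peaks (5369 at an unadjusted p under 0.05, of which 4 were members) and DESeq2 0. Without the 48 h libraries 6 member peaks (12%) were called for 72 h against 24 h, where 4.75% of all peaks were. Within GFP low, the summed peaks of SLAMF7, SDC1 and XBP1, picked after their values were seen, had log2 differences of -0.47 (-0.68 to -0.27), -0.46 (-0.77 to -0.16) and -0.39 (-0.60 to -0.19) at 72 h against 24 h. In GFP high these were -0.16 (-0.38 to 0.06), -0.23 (-0.54 to 0.08) and -0.12 (-0.37 to 0.12). Whether the GFP levels differ in this was not tested.

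Further genes of the programme were set beside the members. Of 91 peaks of 7 B-cell regulators that hold back plasma cell fate (BCL6, BACH2, PAX5, SPIB, IRF8, ETS1, MITF; PAX5 is also a B-cell marker above), 25 were lower (27.5%) and 9 higher (9.89%), with a median log2 change of -0.08. Over all peaks 25.4% were lower and 13.4% higher, so their lower share lay near the background. Falls led inside PAX5 (-1.10 ± 0.12), 32.0 kb outside BCL6 (-0.96 ± 0.12) and inside ETS1 (-0.61 ± 0.11; adjusted p = 3.37e-07, 1.32e-06 and 0.000186). BCL6 itself had 3 lower and 5 higher called peaks among its 10, with a median of 0.26, so it held 5 of the 9 higher peaks. Of these genes 3 had only lower called peaks, 3 had both directions and 1 had neither.

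Secretory and unfolded protein response genes, targets or partners of XBP1, were mixed. They had 15 of 94 peaks lower (16%, against 25.4% of all peaks) and 16 higher (17%, against 13.4%), with a median of 0.09. Their median level was 14.4 CPM, against 7.59 CPM over all peaks. Unlike the members, these further lists were not set beside peaks of the same position. The smallest p-values belonged to falls 26.2 kb outside PDIA6 (-0.76 ± 0.12), 6.4 kb outside TXNDC5 (-0.96 ± 0.17), both protein disulphide isomerase genes, and inside EDEM1 (-0.79 ± 0.14; adjusted p = 2.4e-05, 0.000132 and 0.000171). Of 19 such genes with a peak, 1 had only lower called peaks, 5 only higher, 8 both and 5 neither.

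Other plasma cell genes had 26 of 109 peaks lower (23.9%) and 15 higher (13.8%), near the 25.4% and 13.4% of all peaks. Their median was -0.02. Their leading falls lay 47.4 kb outside SUB1 (-0.82 ± 0.11), inside ZBTB20 (-1.19 ± 0.17) and inside DUSP5 (-0.61 ± 0.12; adjusted p = 3.16e-06, 1.47e-05 and 0.000247). Of these 16 genes, 2 had only lower called peaks, 1 only higher, 6 both and 7 neither. The lower share of the members, 44%, thus stood above that of each of these lists, a difference that was not tested. It stood below the 61.1% of T-cell marker peaks. The members' share rested mainly on PRDM1, CD38 and IRF4, with 60%, 66.7% and 55.6% of their peaks lower. Among the other member genes it ran from 0% (XBP1, SDC1 and CREB3L2) to 100% (TNFRSF17, with 1 peak).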

How the data were processed

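Omni-ATAC-seq counts of 18 Raji samples were analysed, 3 for each of 2 GFP levels at 3 times. The deposited values are raw read counts in peaks, with no normalisation, on hg38. The submitters' processing notes name BWA, FastQC, deepTools and R 4.2.1. How peaks were called, and whether duplicates were removed or reads shifted to the cut site, was not given in the sources used, and kept duplicates would add noise to each count. Column headers give GFP level, a D number, read as the day, and a V number, not matched to replicates. Same-V columns of different groups did not deviate together (correlations -0.00521 to 0.0176).

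The 3 columns of a group were summed, and all 71318 peaks were fitted with edgeR 4.0.16 in R 4.3.3 (TMM, robust quasi-likelihood, GFP level with time as covariate, leaving 2 residual degrees of freedom). The design allowed for this summing. Its low-count filter removed 0 peaks, so all 50 member peaks were tested, the smallest library count among them being 42. SEs were derived from the F statistic. The p-values lean on a median of 22.6 prior degrees of freedom. Single-time differences are of log2 CPM (prior count 2). Their 95% counting intervals use a counting variance multiplied by 1.80. The code was tested on simulated data.

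Genes were 19938 RefSeq protein-coding genes of GRCh38.p14, after 95 readthrough genes were left out. The table has no strand, so gene ends stand for promoters except where a RefSeq promoter sequence was at hand. A peak belongs to 1 gene only.

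Named peaks are, per gene, up to 2 gene-end peaks, the smallest p in each direction or else the strongest peak, and in other lists the 3 genes with the smallest p; other member peaks, added after their values were seen, account for the rest of the 50. The members, lists and tests were chosen with earlier results of these data known. Alternatives were DESeq2 1.42.0, other scalings, filters, libraries, columns and gene distances.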

Additional observations from a re-analysis of the deposited data

Results flagged for a closer look

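The XBP1 promoter peak differed between GFP levels in opposite directions at different times, and that is why it is listed here. It was higher in GFP low at 24 h, by 0.47 on the log2 scale (95% counting interval 0.20 to 0.74), and lower at 48 h, at -0.30 (-0.56 to -0.04). At 72 h the value was 0.16 (-0.11 to 0.44). The intervals cover counting error in 1 library per group, and the difference between times was not tested. Of the 50 member peaks it was the one whose intervals at different times lay clear of 0 on opposite sides. How many of all peaks did so was not counted.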

How the results depend on the processing

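The count of 22 lower member peaks (44%) was 22 under every other scaling and filter tried, where 21.8% to 26.3% of all peaks were lower. It was 18 (36%) with DESeq2, where 18% of all were. Without the libraries of 1 time it was 15 to 21 (30% to 42%, 15 without 72 h), where 18.8% to 23% of all were. Without 1 column it was 21 or 22, where 17463 to 17900 of all 71318 peaks were. Other gene distances, which leave the 25.4% of all peaks unchanged, gave 16 of 33 within 10 kb and 24 of 54 within 100 kb. With V numbers read as time it was 28 (56%), where 31.4% of all were. The 2 higher came to 1 with loess scaling (2%, against 13.3% of all peaks), where the lost call is that of the CREB3L2 promoter. For the named peaks, 458 values under alternatives kept their direction and call, 9 lost and 2 gained a call, and 11 changed sign, all of peaks that were not called; the causes were not tested. The SLAMF7 gene-end peak came to -0.01 with library size only and -0.15 to 0.15, the XBP1 promoter -0.06 to 0.32, the SDC1 peak -0.02 to 0.22 and the weaker CREB3L2 gene-end peak -0.07 to 0.16 with 1 time or column left out. Called higher over all peaks were 9570, but 3721 with DESeq2, 2503 to 9609 with 1 time or column left out (2503 without 72 h), 19287 in the fit on 18 columns and 18464 with V numbers read as time. The replicate block by V number in that fit gave 19080 higher and 20867 lower over all peaks, with 25 member peaks lower and 3 higher, the same 2 counts as without the block. V numbers share only a number, so the block is no pairing by design.

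For 72 h against 24 h, 1337 peaks were lower and 629 higher. These became 342 and 163 with DESeq2, 5228 and 4293 on 18 columns, 5076 and 4120 with the replicate block, and 0 and 0 with V numbers read as time. Leaving out the 48 h libraries or 1 column gave 1108 to 2162 lower and 481 to 1226 higher. Member peaks called for time were 1 with loess scaling (2%, against 2.71% of all peaks). There were 12 on 18 columns (24%, against 13.4%) and 12 with the block (24%, against 12.9%). Without the 48 h libraries there were 6 (12%, against 4.75%). Without 1 column there were 0 to 2, where 1108 to 1344 of all peaks were lower and 481 to 652 higher. This test could not be made without the 24 or the 72 h libraries. Member peaks at least 2-fold lower were 3 to 5 at 24 h, 3 to 4 at 48 h and 1 to 2 at 72 h without 1 column, and 1 at 24 h and 2 at 72 h with V numbers read as time. The log2 change of the summed member CPM from 24 to 72 h in GFP low was 0.035, and -0.037 with V numbers read as time. Among the other lists, secretory genes had 8 higher with loess scaling, 8 lower and 7 higher with DESeq2, and 6 to 17 lower and 3 to 19 higher without 1 time. Other plasma cell genes had 14 lower and 7 higher with DESeq2, and 15 to 21 lower and 4 to 15 higher without 1 time. The opposing regulators had 15 lower within 10 kb, and 2 to 12 higher without 1 time. With 1 library per group, weak peaks of a few CPM have wide intervals at single times.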
